A study of Mus musculus with 46 samples.

Results

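The genes described here are 10 immediate early genes, chosen by symbol from the 23329 gene symbols of the count table: Fos, Fosb, Jun, Junb, Jund, Egr1, Egr2, Ier2, Dusp1 and Atf3. All 10 had a row, and all 10 passed the filter on low counts in each of the 3 model fits. Their RNA was measured in 46 bulk libraries from 23 glioma-bearing mice, 1 library of microglia (MG) and 1 of bone marrow-derived macrophages (BMDM) from each mouse. In every group, including vehicle, the mice were nTVA Ink4a/Arf KO/KO animals, whose neural progenitors carry the avian receptor through which RCAS vectors enter and which lack a tumour suppressor locus throughout the body. Their gliomas were started at 5 to 6 weeks of age by injecting DF1 cells that carry RCAS-PDGFB-HA into the brain. The 7 stages were vehicle (4 mice), 5 days of BLZ945 (4), IR at 5 days (2), IR-BLZ945 at 5 days (3), recurrence after BLZ945 (2), recurrence after IR (4) and recurrence after IR-BLZ945 (4). BLZ945 is an inhibitor of the CSF1 receptor, on which macrophages depend, and IR is radiation. The dose of IR and the time of recurrence are not given in the sources used here. Both were sorted as Cd45+Cd11b+Ly6c-Ly6g- cells, and Cd49d parted them, being absent from MG and present on BMDM, so the 2 names rest on 1 surface protein. All tumours were dissociated, and cells were sorted into TRIzol, before RNA was taken.

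Immediate early genes are transcribed within minutes of a stimulus, without new protein synthesis, because the factors that switch them on are already present and need only be phosphorylated. Fos and Jun family proteins pair to form AP-1, a transcription factor that binds DNA upstream of growth, stress and inflammatory genes. Macrophages and microglia raise these genes in response to growth factors, to inflammatory and danger signals, and also to the handling of tissue, enzymatic dissociation included. Egr1 and Egr2 are zinc finger transcription factors, and Egr2 is also known from macrophages. Atf3 is a stress-induced factor that can pair with Jun proteins. Dusp1 is a phosphatase that switches off p38 and JNK kinases and so closes the loop, and Ier2 is a small nuclear protein.

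The DNA before the start of 4 members is printed here with letter matches to 5 known elements. The sequences are the 250 bases before the RefSeq transcription start, read 5′ to 3′ on the gene's strand (RefSeq, build GRCm38.p6). Dusp1, Jun and Fos are shown because they had the most differences that passed below, and Egr2 is shown as a further member. Capitals mark matches to the motifs searched on both strands: the core CRE (TGACG), the full CRE (TGACGTCA, which contains the core), the CArG box bound by serum response factor, the TATA box (TATAAA), and the AP-1 site (TGANTCA, where N is limited to the 2 bases of a G-C pair).
Fos, chr12:85473640-85473889, plus strand: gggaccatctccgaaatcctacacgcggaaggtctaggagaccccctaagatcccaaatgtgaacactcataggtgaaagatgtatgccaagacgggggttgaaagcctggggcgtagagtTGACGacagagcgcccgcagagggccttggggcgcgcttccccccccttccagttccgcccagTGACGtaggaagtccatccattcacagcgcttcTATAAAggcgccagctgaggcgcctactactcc
Dusp1, chr17:26508473-26508722, minus strand: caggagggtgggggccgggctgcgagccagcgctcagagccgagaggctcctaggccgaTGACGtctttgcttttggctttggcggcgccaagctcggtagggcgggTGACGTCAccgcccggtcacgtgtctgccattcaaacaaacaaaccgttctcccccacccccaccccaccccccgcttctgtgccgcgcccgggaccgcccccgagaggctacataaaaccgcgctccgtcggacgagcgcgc
Egr2, chr10:67537619-67537868, plus strand: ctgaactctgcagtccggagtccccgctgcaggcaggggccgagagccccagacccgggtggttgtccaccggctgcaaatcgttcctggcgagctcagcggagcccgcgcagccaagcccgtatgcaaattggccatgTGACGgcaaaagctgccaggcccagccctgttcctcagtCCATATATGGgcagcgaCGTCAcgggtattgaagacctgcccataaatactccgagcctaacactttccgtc
Jun, chr4:95052223-95052472, minus strand: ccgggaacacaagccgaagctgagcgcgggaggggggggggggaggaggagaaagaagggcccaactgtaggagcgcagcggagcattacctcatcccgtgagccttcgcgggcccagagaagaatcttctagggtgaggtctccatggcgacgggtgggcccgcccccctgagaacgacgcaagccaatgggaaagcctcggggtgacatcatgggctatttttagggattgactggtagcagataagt

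The Fos window held core CREs at positions -129 and -66, counted from the start site to the match's first base, and a TATA match at -33. Dusp1 held a full CRE at -143 and a core CRE at -191. The Egr2 window, 1 of 5 that RefSeq lists for the gene, held the CArG box CCATATATGG at -72, with core CREs at -111 and, on the opposite strand, at -55. The Egr2 window nearest the GENCODE start (RefSeq start 67535499, GENCODE start 67535475) held none of the 5 motifs. The Jun window held none of the 5 motifs as spelled. Of 32851 RefSeq windows of 300 bases (250 before to 50 after the start), 20.8% held a core CRE, 1.79% a full CRE, 1.63% a CArG box, 13.6% a TATA match and 5.2% an AP-1 site. A window was listed for 8 of the 10 members, not for Egr1 and Ier2, and no window of these 8 held an AP-1 site. A match describes letters and is not evidence of binding.

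In the GENCODE annotation of GRCm38, the build that mm10 names, Fos lies at chr12:85473890-85477273 on the plus strand, Fosb at chr7:19302696-19310051 (minus), Jun at chr4:95049034-95052222 (minus), Junb at chr8:84974484-84978718 (minus) and Jund at chr8:70698949-70700616 (plus). Egr1 lies at chr18:34859823-34864984 (plus), Egr2 at chr10:67535475-67542188 (plus), Ier2 at chr8:84661331-84662852 (minus), Dusp1 at chr17:26505590-26562128 (minus) and Atf3 at chr1:191170296-191218039 (minus). Counts are per gene. Jun, Junb, Jund, Dusp1 and Atf3 overlap an annotated gene on the opposite strand (Junos, Prdx2, Gm11175, Gm8225 with Ergic1, and Gm24748). The strand setting behind the counts is not stated in the labels, and reads of these pairs therefore cannot be told apart, and Dusp1 also overlaps 2 clone-named genes on its own strand.

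The libraries held 3007379 to 16993474 counts (median 11730650) and 9181 to 12885 genes with 10 or more counts. The 10 microglia markers fixed for the check separated the populations, with a summed level of 13.10 to 15.12 log2 CPM in MG and 9.95 to 13.09 in BMDM, while the 10 BMDM markers summed to 11.60 to 15.23 in BMDM and 7.65 to 13.02 in MG. Sex-linked genes matched between the 2 libraries of 22 of 23 mice. The exception was mouse 65698, 1 of the 2 IR mice at 5 days. Its libraries, together with the MG libraries of 65971 and 68344 and the BMDM libraries of 122 and 124, in which few genes were detected, are called the 6 doubted libraries. Sex was not balanced over the stages. Every mouse at 5 days of BLZ945 had Xist rather than Y-linked RNA, and every mouse in recurrence after IR had Y-linked RNA. Both profiles occurred among the IR-BLZ945 mice at 5 days and in recurrence. The part of sex in the member differences was not tested. The level of Lars2, a mitochondrial leucyl-tRNA synthetase gene, separated the phases: 11.43 to 15.22 log2 CPM in the 20 recurrent libraries against 1.90 to 9.70 in the 18 libraries at 5 days, with Malat1, a nuclear noncoding RNA, moving the other way. Which property of the libraries this reflects was not tested, and stage and this property cannot be told apart in these comparisons.

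Levels per library are log2 CPM (counts scaled by library total and TMM factor, after a prior count of 1 is added). The members were among the most abundant transcripts, at the 93.6th (Fosb) to 99.8th (Junb) percentile of mean level among genes tested in all 46 libraries. Compared per length (RPKM on GENCODE exon length), Fos led in vehicle MG at 1051, with Atf3 at 966, Junb at 845 and Fosb last at 33.0. In vehicle BMDM the order began with Junb (1011), Fos (904) and Dusp1 (790), and again ended with Fosb (20.9). That order rests on mouse 65967: without it the order was Fos (828), Junb (707), Atf3 (433) and Dusp1 (375). At 5 days of IR, Dusp1 led in BMDM at 2773 RPKM, ahead of Junb (1476) and Fos (1425). In recurrence after IR it stood at 210, behind Junb (540), Atf3 (524) and Fos (446). Together the 10 genes took 1.24% ± 0.52 (SD, n = 4) of all counts in vehicle MG and 1.12% ± 0.50 (n = 4) in vehicle BMDM. At 5 days of IR the share was 1.98% and 2.46% in the 2 MG libraries and 1.8% and 2.52% in the 2 BMDM libraries. In the 10 recurrent MG libraries it lay between 0.667% and 1.00%, and in the 10 recurrent BMDM libraries between 0.440% and 0.984%. The members varied less between mice of 1 group than most genes did: the pooled within-group SD ran from 0.41 log2 CPM (Junb) to 0.96 (Fosb), the 13.7th and 44.5th percentile among genes tested. Most of those genes were less abundant than the members. Spread was not compared with genes of like level, so whether the members varied little for their abundance was not tested.

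**Figure D1:**
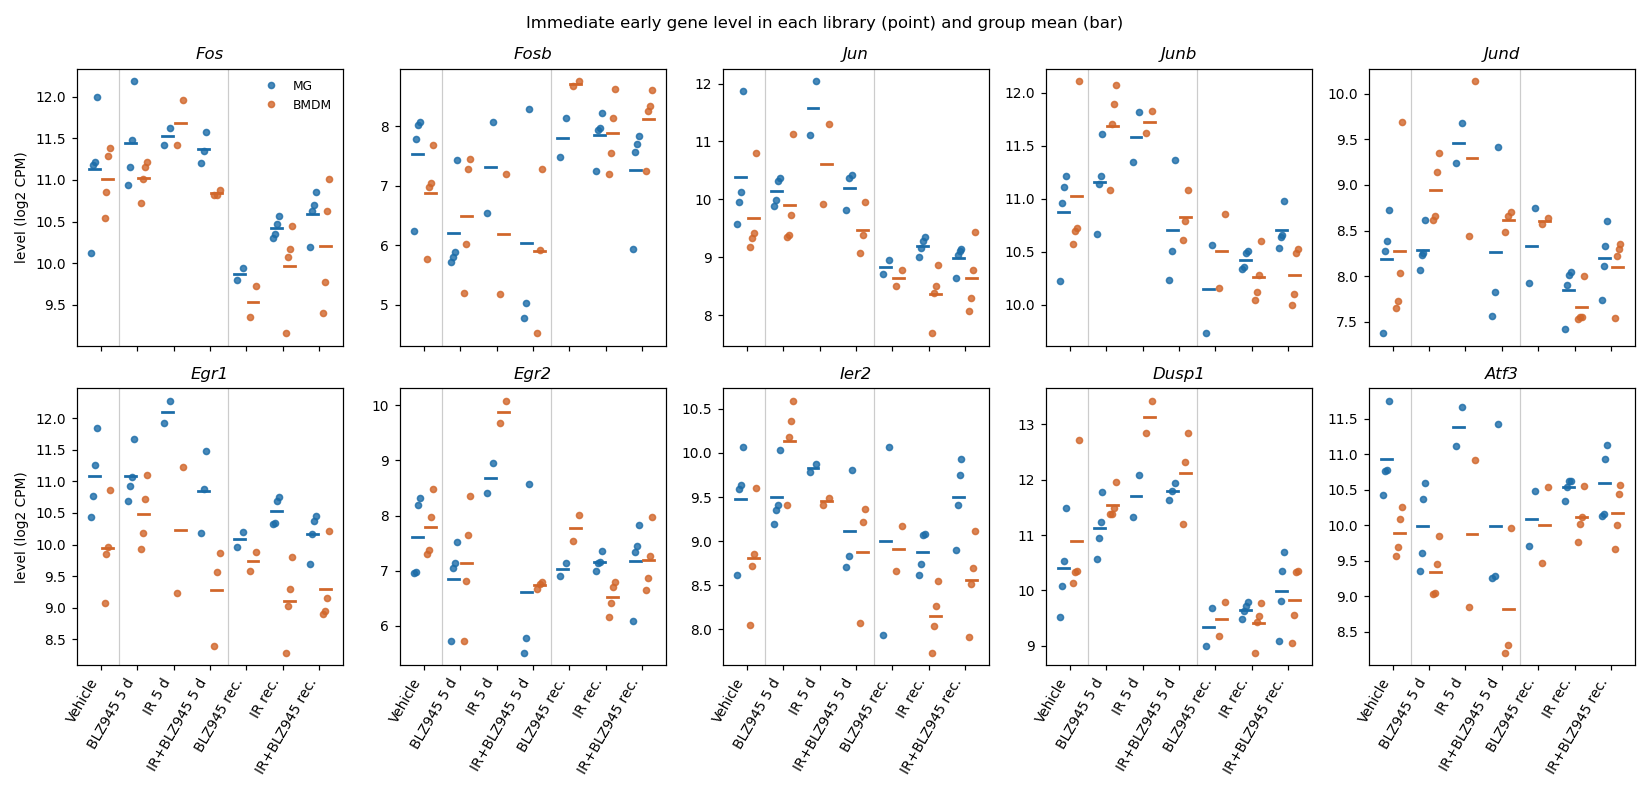
Level of each of the 10 genes (log2 CPM, separate axis ranges) in every library, by stage, with MG in blue and BMDM in orange; points are mice, bars are group means and grey lines part vehicle, 5-day and recurrent stages. All 10 recurrent MG libraries lie below all 9 at 5 days for Jun (8.65 to 9.35 against 9.82 to 12.04), and all 10 recurrent BMDM libraries lie below the 9 at 5 days for Dusp1 (8.88 to 10.36 against 11.19 to 13.43).

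The study's contrast between tumours shortly after treatment and tumours that had grown back carried 20 of the 28 member differences that passed the test. Calls with the mouse as a block, described below, are not among the 28. Of all genes tested, 3.69% to 28.1% passed in the 6 comparisons of this contrast. All 20 were lower in recurrence, although 3 members that had no call passed as higher after IR-BLZ945 in MG once the doubted libraries were left out. In that fit 23.5% of all genes passed in that comparison. With all libraries, the calls among all genes went both ways. After BLZ945, IR and IR-BLZ945, in MG, 918, 1182 and 1665 genes were higher and 279, 498 and 2412 lower. In BMDM, 753, 1029 and 259 were higher and 240, 799 and 279 lower. Dusp1 fell in 5 of 6 such comparisons, Fos in 4, Jun in 3, Junb, Jund and Egr1 in 2 each and Egr2 and Ier2 in 1 each, while no call was made for Fosb or Atf3. Calls are from the quasi-likelihood test of edgeR, with Benjamini-Hochberg adjustment over all genes tested and a threshold of 0.05. Fold changes are log2 values ± SE from these fits. They weigh counts, so a library with a high count pulls them further than it pulls a mean of log levels. In bulk RNA, fewer cells that express a gene and less RNA per cell cannot be told apart.

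Recurrence after IR differed from IR at 5 days in 7 of the 10 members in BMDM and 5 in MG, all lower. Among all genes tested, 12.5% passed in BMDM and 11.6% in MG. The members' median log2 fold change was -1.59 in BMDM and -1.30 in MG, against medians over all genes of 0.21 and 0.07. Dusp1 showed the largest member difference in BMDM. It stood at 13.43 and 12.84 log2 CPM in the 5-day mice (65698 and 65972) and at 9.53, 9.78, 8.88 and 9.43 in the 4 recurrent mice. The groups were far apart, and the fold change was -3.74 ± 0.58 (adjusted p = 0.000438). In MG, Dusp1 stood at 12.08 and 11.33 at 5 days and at 9.71, 9.62, 9.48 and 9.79 in recurrence (-2.04 ± 0.42, adjusted p = 0.00412).

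Of the AP-1 genes, Jun fell in both populations. In BMDM it stood at 9.91 and 11.30 log2 CPM at 5 days and at 8.39, 8.87, 7.69 and 8.50 in recurrence (-2.39 ± 0.52, adjusted p = 0.00642). In MG it stood at 11.10 and 12.04 at 5 days and at 9.17, 9.29, 9.0 and 9.35 in recurrence (-2.35 ± 0.40, adjusted p = 0.0014). No recurrent library reached the lower 5-day one in either population. Fos in BMDM stood at 11.42 and 11.95 at 5 days and at 10.17, 10.45, 9.16 and 10.07 in recurrence (-1.71 ± 0.36, adjusted p = 0.00494). In MG the Fos difference of -1.02 ± 0.34 did not pass edgeR's test (adjusted p = 0.0539). It passed with DESeq2 (-1.03, adjusted p = 0.0373), where 19.9% of all genes passed. Junb, a Jun relative that forms weaker activating pairs, fell by 1.47 in BMDM and by 1.12 in MG (adjusted p = 0.0127 and 0.0238). Jund fell by 1.89 and 1.54 (adjusted p = 0.0123 and 0.0175).

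The Egr genes parted by population in what passed. Egr2 in BMDM stood at 9.68 and 10.08 log2 CPM at 5 days of IR and at 6.80, 6.71, 6.15 and 6.42 in recurrence (-3.38 ± 0.48, adjusted p = 0.000187). In MG it stood at 8.96 and 8.41 against 7.15, 7.002, 7.35 and 7.14, which did not pass (-1.48 ± 0.63, adjusted p = 0.126). Egr1 fell in MG, from 11.92 and 12.28 to 10.34, 10.69, 10.33 and 10.75 (-1.49 ± 0.35, adjusted p = 0.00829). In BMDM the Egr1 libraries overlapped (-1.39 ± 0.53, adjusted p = 0.0883). Whether the change from 5 days to recurrence differed between the populations was not tested. Ier2 fell in BMDM (-1.30 ± 0.40, adjusted p = 0.0364) and had -0.87 ± 0.43 in MG (adjusted p = 0.196).

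Each IR arm at 5 days held 2 mice, and with 1 left out the lone mouse is assumed to vary like the other groups. Fos, Egr2 and Dusp1 in BMDM and Jun in MG passed without any one library. Without the 5-day mouse 65972, BMDM Jun was -1.48 (adjusted p = 0.114), Jund -0.76 (0.355) and Junb -1.33 (0.0573), and MG Egr1 was -1.37 (0.0838), Junb -1.39 (0.0506) and Jund -1.80 (0.0532). Without the 5-day mouse 65698, BMDM Junb had an adjusted p of 0.0631, and MG Dusp1 was -1.54 (0.0875), Junb -0.79 (0.265) and Jund -1.23 (0.172). Without the recurrent mouse 68343, MG Junb and Jund had adjusted p of 0.0586 and 0.0528. The Ier2 call ended without 65698, 65972, 68343, 68345 or 68346 (adjusted p from 0.0653 to 0.185). Without the doubted libraries 7 members passed in BMDM, where Ier2 did not (0.105) and Egr1 did (-2.08 ± 0.57, 0.0318), and 3 in MG, where Junb (0.146) and Dusp1 (0.0726) did not. With a term for Malat1 minus Lars2, which parts the same libraries as the stage does, none of the 12 calls passed, and 0.254% of all genes passed in BMDM and 1.14% in MG. In MG 1 member that was not among these calls passed with the term. BMDM Dusp1 was then -0.35 and Jun 0.31.

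Markers of other cells moved with this comparison. The summed level of 7 glioma and oligodendrocyte precursor genes was 3.62 to 4.43 log2 CPM in MG at 5 days of IR and 8.56 to 9.63 in recurrence, and in BMDM 0.25 to 4.43 and 7.16 to 8.38. Of the 7 genes, 1 was at 0 in MG at 5 days and 0 in the other 3 groups. The 8 neutrophil markers went the other way, from 9.34 to 9.90 down to 8.11 to 8.89 in MG and from 8.03 to 8.24 down to 6.78 to 7.58 in BMDM, with 1 of 8 at 0 in MG and 3 in BMDM at 5 days. The 7 astrocyte markers summed to 10.996 to 11.34 at 5 days and 8.28 to 8.75 in recurrence in MG, and to 7.49 to 8.75 and 5.94 to 6.68 in BMDM. The 9 T and NK cell markers in BMDM summed to 3.63 to 5.46 and 1.17 to 2.91. The 5 choroid plexus markers summed to 2.02 to 2.53 and 4.03 to 5.58 in MG. In BMDM they summed to 0 to 2.89, with 3 of 5 at 0, and 3.88 to 5.12. Markers of the sorted cells moved too. Microglia markers in MG summed to 14.37 to 15.03 and 13.74 to 14.14, and BMDM markers in BMDM to 13.34 to 14.64 and 11.60 to 12.85. The part of these shifts in the member differences was not tested.

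Recurrence after IR-BLZ945 differed from 5 days of IR-BLZ945 in 4 members in MG and 1 in BMDM, all lower. The share of all genes that passed was 28.1% in MG and 3.69% in BMDM. The members' median fold change was -0.32 in MG and -0.43 in BMDM, against -0.08 and -0.01 over all genes. Dusp1 again led. In MG it stood at 11.64, 11.94 and 11.80 log2 CPM at 5 days and at 9.09, 9.81, 10.36 and 10.70 in recurrence (-1.82 ± 0.39, adjusted p = 0.003). In BMDM it stood at 12.32, 11.19 and 12.85 at 5 days and at 9.57, 9.05, 10.33 and 10.36 in recurrence (-2.36 ± 0.52, adjusted p = 0.0144). The groups did not overlap in either population. Jun in MG stood at 9.82, 10.38 and 10.41 at 5 days and at 9.04, 9.14, 8.65 and 9.11 in recurrence (-1.36 ± 0.37, adjusted p = 0.0106). Fos (-0.90 ± 0.31, adjusted p = 0.0339) and Egr1 (-0.88 ± 0.31, adjusted p = 0.0406) fell in MG by less.

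The MG calls of Jun and Dusp1 passed without any one library. Fos in MG passed without the 5-day mouse 65696 and lost its call without any of the other 6 mice (adjusted p from 0.0516 to 0.136). Egr1 did likewise (0.0552 to 0.287), with its lowest value, -0.47, without the 5-day mouse 65971. BMDM Dusp1 did not pass without the 5-day mouse 67537 (-1.96, adjusted p = 0.0839) or the recurrent mice 67169 (0.0569) or 67543 (0.0574). Without the doubted libraries, of which the 5-day MG library of 65971 belongs to this comparison, MG Fos was -0.76 (0.123) and Egr1 -0.47 (0.306). In the same fit 3 other members passed as higher in recurrent MG: Fosb (2.43 ± 0.61, adjusted p = 0.0107), Egr2 (1.56 ± 0.49, 0.0297) and Atf3 (1.29 ± 0.41, 0.0313). Of all genes, 23.5% passed there in either direction. With the Malat1 minus Lars2 term none of the 5 calls passed (adjusted p from 0.201 to 0.616). The 5 choroid plexus markers reached 4.54 to 10.75 log2 CPM in MG and 3.44 to 9.46 in BMDM at 5 days, against 2.56 to 4.78 and 1.82 to 4.68 in recurrence, and the 7 glioma and oligodendrocyte precursor genes were 4.21 to 5.85 and 2.66 to 3.69 against 6.60 to 8.58 and 5.54 to 7.98. Their part was not tested.

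In edgeR's test with all libraries, recurrence after BLZ945 differed from 5 days of BLZ945 in Fos and Dusp1 in MG and in Fos in BMDM. The share of all genes that passed was 8.24% in MG and 6.82% in BMDM. Fos in MG stood at 11.15, 12.19, 10.94 and 11.48 log2 CPM at 5 days and at 9.80 and 9.94 in the 2 recurrent mice (-1.65 ± 0.38, adjusted p = 0.00922). In BMDM it stood at 10.73, 11.02, 11.21 and 11.16 at 5 days and at 9.35 and 9.72 in recurrence (-1.47 ± 0.40, adjusted p = 0.0312). Both recurrent mice lay below every 5-day mouse in each population. Dusp1 in MG stood at 10.94, 11.79, 10.57 and 11.24 at 5 days and at 9.68 and 9.004 in recurrence (-1.84 ± 0.48, adjusted p = 0.0194). Its BMDM estimate of -2.04 ± 0.65 did not pass edgeR's test (adjusted p = 0.0625) but passed with DESeq2 (-2.15, adjusted p = 0.00649). DESeq2 also called Junb (-1.28, adjusted p = 0.0148) and Ier2 (-1.37, 0.0195) in BMDM, with 10.8% of all genes passing. In MG it also called Jun (-1.25, 0.0386), with 14% of all genes passing. With 2 recurrent mice, leaving out either 67668 or 70696 ended all 3 calls: adjusted p = 0.112 and 0.0524 for Fos in MG, 0.0753 and 0.158 for Dusp1 in MG, and 0.295 and 0.126 for Fos in BMDM. The Malat1 minus Lars2 term ended them too (adjusted p from 0.139 to 0.334), and without the doubted libraries BMDM Fos had an adjusted p of 0.051, while in MG Jun (-1.34 ± 0.45, 0.0491) and Junb (-1.01 ± 0.30, 0.0281) passed beside Fos and Dusp1. Without the doubted libraries 15.6% of all genes passed in MG. The 7 glioma and oligodendrocyte precursor genes summed to 2.55 to 6.06 log2 CPM in MG and 0 to 3.64 in BMDM at 5 days, and to 8.83 to 9.71 and 7.19 to 7.53 in recurrence. Neutrophil markers in MG went from 8.91 to 9.56 at 5 days to 7.93 to 7.97 in recurrence. In BMDM, T and NK cell markers went from 5.72 to 8.05 to 3.81 to 4.75, and microglia markers from 9.95 to 11.46 to 11.98 to 12.80. The part of these cells was not tested.

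Fosb did not follow most of the other members. Its estimate was higher in recurrence than at 5 days in 6 of 6 comparisons (0.32 to 1.98) and none passed edgeR's test with all libraries. Estimates were also higher in recurrence in 4 of 6 comparisons for Atf3 and in 3 of 6 for Egr2. Without the doubted libraries, Fosb, Egr2 and Atf3 passed as higher after IR-BLZ945 in MG, as given above. Fosb is the Fos family member whose shortened splice form accumulates after repeated stimulation. In BMDM, Fosb stood at 6.03, 7.44, 7.28 and 5.198 log2 CPM at 5 days of BLZ945 and at 8.68 and 8.76 in recurrence (1.98 ± 0.66, adjusted p = 0.0735). After IR-BLZ945 it stood at 5.92, 7.29 and 4.52 at 5 days and at 8.26, 8.35, 8.61 and 7.26 in recurrence (1.88 ± 0.64, adjusted p = 0.107), where DESeq2 gave an adjusted p of 0.0424. Its 5-day libraries were widely spread, from 4.78 to 8.29 in MG and from 4.52 to 7.44 in BMDM. Atf3 had no call between recurrence and 5 days with all libraries. Its estimates in recurrence against 5 days ran from -0.80 ± 0.50 (IR, MG) to 1.15 ± 0.46 (IR-BLZ945, BMDM), with adjusted p of 0.323 and 0.176.

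**Figure D2:**
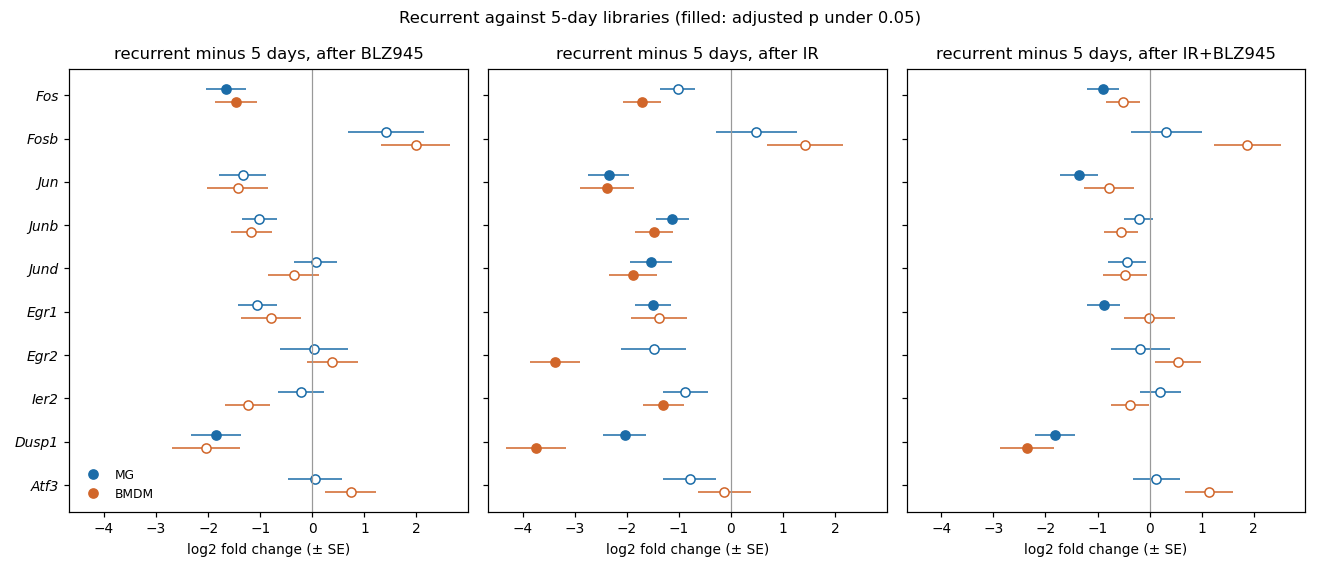
Log2 fold change (± SE) of each gene in recurrent against 5-day libraries of the same treatment, with MG in blue and BMDM in orange; filled points passed edgeR's test at an adjusted p of 0.05. Every filled point lies below 0, Dusp1 in BMDM after IR is the lowest at -3.74, and the 6 Fosb points lie above 0 and are open.

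Of 40 other immediate early genes, a list drawn up with earlier results of these data known, 39 were tested in each fit. After IR, recurrence against 5 days gave 2 higher and 8 lower in BMDM and 1 higher and 6 lower in MG, with list medians of -0.22 and 0.27. Of all genes, 12.5% passed in BMDM and 11.6% in MG. Btg2, an antiproliferative gene, fell by 2.34 in BMDM (adjusted p = 0.00278) and by 2.10 in MG (adjusted p = 0.000916). Plk3, a stress-responsive kinase gene, fell by 1.72 and 1.58 (adjusted p = 0.00338 and 0.0124). Klf6 fell by 2.21 in BMDM (adjusted p = 0.00471), while Rhob, an early response GTPase gene, rose there (2.81 ± 0.57, adjusted p = 0.00392). In MG, Dusp6, a phosphatase for ERK, fell by 1.47 (adjusted p = 0.0073) and Ier5 by 1.50 (adjusted p = 0.00775). After BLZ945 the list gave 2 higher and 5 lower in MG and 1 higher and 3 lower in BMDM, where 8.24% and 6.82% of all genes passed. Zfp36, which destabilises inflammatory mRNAs, fell by 2.36 in MG and by 2.56 in BMDM (adjusted p = 0.000895 and 0.0137). After IR-BLZ945, 5 of the 39 rose and 2 fell in MG, where 28.1% of all genes passed. Klf10 (2.39), Nr4a3 (4.16) and Dusp4 (3.46) rose and Dusp6 fell by 1.60 (adjusted p = 0.00569, 0.00615, 0.0112 and 0.00177). Rhob alone passed in BMDM (2.51 ± 0.48, adjusted p = 0.0061), where 3.69% of all genes passed.

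Against vehicle, 7 member differences passed in 12 comparisons, 3 higher and 4 lower. The 12 comparisons share the 4 vehicle mice of each population. At 5 days of IR, the estimate was above 0 for 9 of 10 members in both populations, and 1 passed: Egr2 in BMDM. It stood at 7.97, 7.38, 7.31 and 8.48 log2 CPM in vehicle and at 9.68 and 10.08 after IR (2.07 ± 0.47, adjusted p = 0.036), with 1.07% of all genes passing. Both irradiated mice lay above every vehicle mouse. The call ended without vehicle mouse 41, 78 or 65966 or without 65698 or 65972 (adjusted p from 0.061 to 0.11), and with the Malat1 minus Lars2 term (0.0811). Astrocyte markers summed to 5.27 to 7.17 log2 CPM in vehicle BMDM and 7.49 to 8.75 after IR, and their part was not tested. In MG at 5 days of IR none passed edgeR's test, where 1.99% of all genes passed. There 5 members had an unadjusted p under 0.05, as did 1970 of 14534 genes. DESeq2 called 0, with 5.68% of all genes passing. The nearest was Jund, at 8.28, 8.39, 7.38 and 8.73 in vehicle and 9.68 and 9.24 after IR (1.26 ± 0.41, adjusted p = 0.121).

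After 5 days of IR-BLZ945, Dusp1 rose in MG (1.34 ± 0.38, adjusted p = 0.0279), where 13.4% of all genes passed. Vehicle MG stood at 10.08, 10.53, 9.52 and 11.49 log2 CPM and the treated MG at 11.64, 11.94 and 11.80, just above the highest vehicle mouse. The call ended without vehicle 41, 78 or 65966 or without 65971 (adjusted p from 0.0762 to 0.124), without the doubted libraries (0.0821), in one fit over all libraries (0.0939), with a term for the style of mouse number (0.0798) and with the Malat1 minus Lars2 term (0.0843). Without the doubted libraries, Fosb (-2.69 ± 0.62, adjusted p = 0.0125), Egr2 (-2.01 ± 0.50, 0.0192) and Atf3 (-1.66 ± 0.42, 0.0206) passed as lower than vehicle, with 7.56% of all genes passing. Choroid plexus markers summed to 0.92 to 2.75 log2 CPM in vehicle MG against 4.54 to 10.75 here, and their part was not tested. In BMDM no member passed edgeR's test, where 0.57% of all genes passed. There 1 member had an unadjusted p under 0.05, as did 2217 of 14568 genes. DESeq2 called 0, with 3.87% of all genes passing. The BMDM estimate for Dusp1 was 0.95 ± 0.51 (adjusted p = 0.393).

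After 5 days of BLZ945, Ier2 rose in BMDM, where 5.51% of all genes passed. It stood at 8.72, 8.86, 8.05 and 9.60 log2 CPM in vehicle and at 10.36, 10.18, 10.59 and 9.41 after BLZ945 (1.30 ± 0.34, adjusted p = 0.0282). Treated mouse 65975 lay below vehicle mouse 65967, and the other 3 lay above all vehicle mice. The call ended without vehicle 41, 78 or 65966 or treated 122 or 124 (adjusted p from 0.06 to 0.0885), without the doubted libraries, which include 122 and 124 (0.96, adjusted p = 0.204), and with the number style term (0.0752). Microglia markers in BMDM summed to 12.22 to 13.09 log2 CPM in vehicle and 9.95 to 11.46 after BLZ945, and oligodendrocyte markers to 6.93 to 7.93 and 7.95 to 8.39; their part was not tested. In MG the Ier2 estimate was 0.05 ± 0.36. No member passed there in edgeR's test, where 0.303% of all genes passed. An unadjusted p under 0.05 was seen for 0 members and for 1947 of 14534 genes. DESeq2 called 0, with 3.87% of all genes passing. Of the 39 other immediate early genes, 3 rose and 3 fell in BMDM at 5 days of BLZ945. Ier5 rose (1.36), as did Arc (2.86), while Plk3 fell by 1.24 and Cyr61 fell by 5.5 (adjusted p = 0.0224, 0.0297, 0.018 and 0.0268).

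In recurrence against vehicle, Jun fell in MG after each treatment. Vehicle MG stood at 10.13, 9.96, 9.57 and 11.87 log2 CPM. Recurrent MG stood at 8.95 and 8.71 after BLZ945 (-1.78 ± 0.46, adjusted p = 0.032), at 9.17, 9.29, 9.0 and 9.35 after IR (-1.36 ± 0.35, adjusted p = 0.0253) and at 9.04, 9.14, 8.65 and 9.11 after IR-BLZ945 (-1.69 ± 0.35, adjusted p = 0.0135). All 10 recurrent libraries lay below the lowest vehicle library. The shares of all genes that passed were 3.53%, 4.33% and 4.82%. Vehicle mouse 65967 set much of the size: without it the values were -1.03, -0.61 and -0.93 (adjusted p = 0.0573, 0.194 and 0.0522). The call after BLZ945 also ended without vehicle 41 (0.0603) or recurrent 67668 (0.161) or 70696 (0.224). The call after IR ended without any of its 4 recurrent mice (0.0579 to 0.1), and the call after IR-BLZ945 without 67947 (0.0566). With the Malat1 minus Lars2 term adjusted p were 0.155, 0.186 and 0.284. One fit over all libraries gave 0.0834 and 0.0534 for the first and second. Lars2 in vehicle MG spanned 6.15 to 13.87 log2 CPM. The glioma and oligodendrocyte precursor genes summed to 5.89 to 6.65 in vehicle MG and to 8.83 to 9.71, 8.56 to 9.63 and 6.60 to 8.58 in the recurrences, and their part was not tested.

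In BMDM the recurrent stages gave 1 member call against vehicle in edgeR's test with all libraries. Dusp1 after IR was at 10.35, 10.14, 10.34 and 12.72 log2 CPM in vehicle and at 9.53, 9.78, 8.88 and 9.43 in recurrence (-1.91 ± 0.49, adjusted p = 0.0486), with 1.87% of all genes passing. Without vehicle mouse 65967, whose BMDM library had the lowest Lars2 of its group (2.99 log2 CPM), Dusp1 was -0.82 (adjusted p = 0.285). The call also ended without vehicle 41 or any recurrent mouse (0.0606 to 0.167), with RLE size factors (0.0532), with no low-count filter (0.0599), and with the Malat1 minus Lars2 term, where it was 0.77 (0.821). In BMDM, glioma and oligodendrocyte precursor genes summed to 2.92 to 3.91 log2 CPM in vehicle and 7.16 to 8.38 in recurrence after IR, T and NK cell markers to 4.56 to 7.78 and 1.17 to 2.91, and neutrophil markers to 8.07 to 10.80 and 6.78 to 7.58; their part was not tested. After BLZ945 and after IR-BLZ945 no member passed edgeR's test in BMDM, where 0% and 0.0275% of all genes passed. There, 3 and 5 members had an unadjusted p under 0.05, as did 1183 and 1504 of 14568 genes. DESeq2 called 1 (Fos, -1.50, adjusted p = 0.0306) and 0, with 0.686% and 1.45% of all genes passing. The estimates for Jun in BMDM were -1.16 ± 0.57, -1.42 ± 0.45 and -1.08 ± 0.45 after BLZ945, IR and IR-BLZ945. None passed edgeR's test with all libraries (adjusted p = 0.621, 0.106 and 0.409). After IR, Jun passed with DESeq2 (-1.41, adjusted p = 0.0351) and also without the doubted libraries (-1.44 ± 0.40). DESeq2 called 4 members after IR, the others being Fos, Egr2 and Dusp1, with 6.25% of all genes passing.

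**Figure D3:**
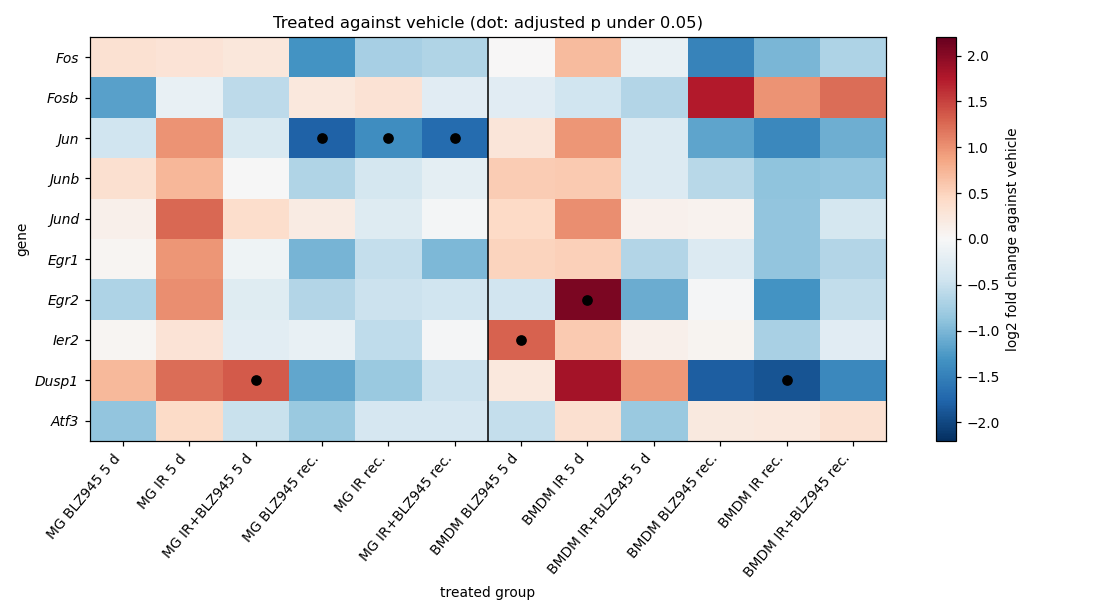
Log2 fold change of each gene (rows) in each treated group against vehicle of the same population (columns, MG left of the line and BMDM right), in colour from -2.2 (blue) to 2.2 (red); a dot marks an adjusted p under 0.05. Jun is blue with a dot in the 3 recurrent MG columns (-1.78, -1.36 and -1.69), and Dusp1 runs from 1.83 at 5 days of IR to -1.91 in recurrence after IR in BMDM.

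The response to treatment was then compared between the populations as an interaction, treated minus vehicle in MG less the same in BMDM. No member passed in any of the 6 comparisons with edgeR or with DESeq2. The number with an unadjusted p under 0.05 was 1 at 5 days of BLZ945 (Ier2, -1.32 ± 0.51, adjusted p = 0.194) and 0 in each of the others. Of all 15901 genes it was 2422 at 5 days of BLZ945 and 478 to 1944 in the others. Among all genes, 1.65%, 0.0755% and 0.358% passed at 5 days of BLZ945, IR and IR-BLZ945, and 0%, 0.0189% and 0% in the recurrences in the same order. The SE of a member's interaction ran up to 1.07 (Fosb), so differences of 1 log2 unit between populations were not detectable for such members.

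Between the populations, Egr1 and Atf3 were higher in MG of nearly every mouse. Egr1 was higher in MG in 21 of 23 mice, with a median difference within a mouse of 1.01 log2 units (range -0.05 to 3.10). Atf3 was also higher in 21 of 23 mice, with a median of 0.58 (range -0.31 to 2.28). Jun was higher in MG in 19 mice, Fos in 18, Ier2 in 16, Junb in 12, Jund and Dusp1 in 10 each and Fosb and Egr2 in 9 each. In vehicle, Egr1 stood at 11.26, 10.76, 10.44 and 11.85 log2 CPM in MG and at 9.96, 9.85, 9.08 and 10.87 in BMDM of mice 41, 78, 65966 and 65967. Atf3 stood at 10.42, 10.77, 10.77 and 11.75 in MG and at 9.69, 9.56, 10.25 and 10.08 in BMDM, with no overlap. Astrocyte markers were also higher in MG, at 8.66 to 11.22 against 5.27 to 7.17 in vehicle, 10.996 to 11.34 against 7.49 to 8.75 at 5 days of IR and 9.84 to 10.06 against 6.77 to 8.61 at 5 days of IR-BLZ945, and their part was not tested.

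In edgeR's test of group means, 1 member passed, Egr1 at 5 days of IR-BLZ945 (1.54 ± 0.46, adjusted p = 0.0229), where 12.8% of all genes passed. It stood at 10.19, 11.48 and 10.87 in MG and at 9.57, 8.39 and 9.86 in BMDM. That call ended without the MG library (1.23, adjusted p = 0.115) or the BMDM library (1.22, 0.128) of mouse 65971, and without the doubted libraries (1.17, 0.0899). In that last fit Egr1 (1.10 ± 0.37, 0.0385) and Atf3 (1.10 ± 0.35, 0.0282) passed in vehicle, where 16.2% of all genes passed. No member passed in the other 6 stages, in which 9.14% (vehicle), 21.8% (BLZ945) and 9.09% (IR) of all genes passed before recurrence and 0.0818% (BLZ945), 1.91% (IR) and 4.41% (IR-BLZ945) in recurrence. In the same order, 3, 0, 2, 0, 1 and 1 members had an unadjusted p under 0.05, against 3282, 5472, 3690, 660, 1215 and 2320 of all 15901 genes. DESeq2 called 0, 0, 1, 0, 1 and 0 members, where 12.7%, 26%, 15.3%, 0.736%, 3.13% and 7.51% of all genes passed.

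By the labels both libraries of a mouse come from the same animal, which the sex-linked genes go against for mouse 65698, so the mouse was fitted as a block with and without it. With all 23 mice as a replicate block Egr1 was higher in MG in vehicle (1.14 ± 0.32, adjusted p = 0.0266), at 5 days of IR-BLZ945 (1.54 ± 0.40, 0.013) and in recurrence after IR (1.42 ± 0.33, 0.0175). Atf3 was higher in vehicle (1.03 ± 0.24, 0.006) and at 5 days of IR-BLZ945 (1.16 ± 0.27, 0.00666). Of all genes, 8.8% passed in vehicle, 11.1% at 5 days of IR-BLZ945 and 2.25% in recurrence after IR. Without mouse 65698, an alternative chosen after seeing the data, these 5 calls passed too (adjusted p from 0.00188 to 0.0163), and Atf3 also passed at 5 days of BLZ945 (0.64 ± 0.21, 0.0315). At 5 days of IR, where 65698 is 1 of 2 mice, the block with all 23 mice gave calls for Egr1 (1.87 ± 0.48, 0.0149), Atf3 (1.51 ± 0.35, 0.00686) and Dusp1 (-1.43 ± 0.43, 0.0387), with 9.92% of all genes passing. Without 65698 a single mouse is left, assumed to vary like the others, and none passed: Egr1 was 1.05 (0.519), Atf3 0.73 (0.513) and Dusp1 -1.52 (0.258). Of the other immediate early genes, Nr4a2, an orphan nuclear receptor gene, was lower in MG in 6 of 7 stages in the test without the block, and Rhob was higher in 5 of 7. In vehicle these differences were -4.56 ± 0.82 and 2.73 ± 0.43 (adjusted p = 0.000149 and 2.16e-05).

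**Figure D4:**
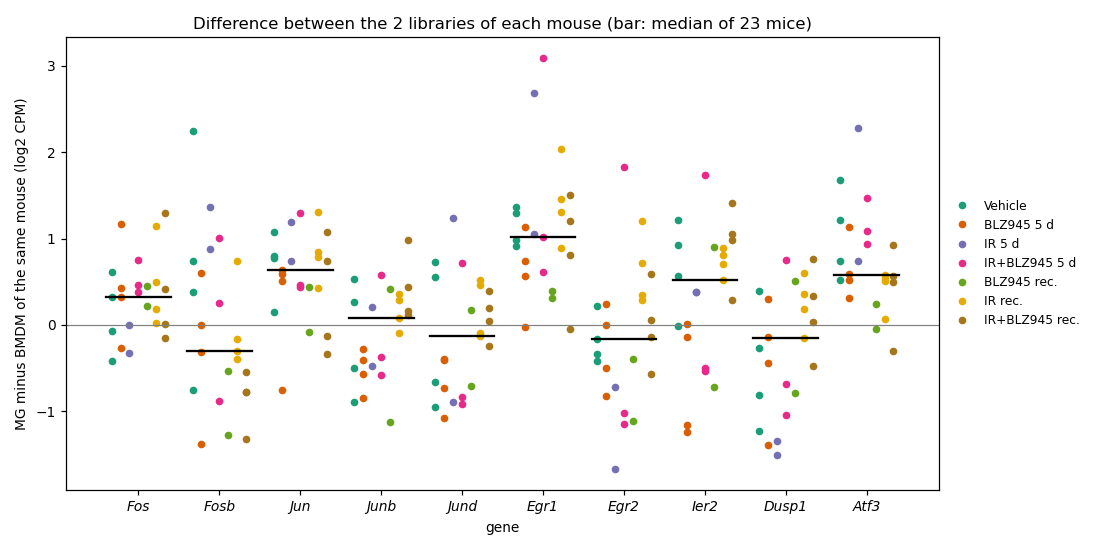
MG minus BMDM level (log2 CPM) within each of the 23 mice for the 10 genes, coloured by stage; bars are medians. Egr1 (median 1.01) and Atf3 (0.58) lie above 0 in 21 of 23 mice, and Jund and Dusp1 lie on both sides, above 0 in 10 of 23.

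Some members sat high or low together in both libraries of a mouse. Levels were centred on the mean of their population and stage and compared over 23 mice, with two-sided p from 100000 permutations of mice within stage, adjusted over the 10 relations computed. Atf3 had r = 0.72 (p = 0.00261, adjusted 0.0222) and rho = 0.72 (p = 0.00237, adjusted 0.0237). Fosb had r = 0.67 (p = 0.016, adjusted 0.0399) and rho = 0.69 (p = 0.00648, adjusted 0.0324). Jun had r = 0.64 (p = 0.0152, adjusted 0.0399) and rho = 0.58 (p = 0.023, adjusted 0.0725). Egr2 had r = 0.54 (p = 0.00444, adjusted 0.0222) and rho = 0.51 (p = 0.029, adjusted 0.0725). Without the 2 mice farthest from the median on the MG axis, r was 0.65 for Atf3, 0.55 for Fosb, 0.58 for Jun and 0.58 for Egr2. Fos (r = 0.40, rho = 0.49), Dusp1 (0.50, 0.33) and Egr1 (0.33, 0.30) did not pass (adjusted p of r = 0.0843, 0.187 and 0.287), nor did Jund (0.22, 0.20), Ier2 (0.21, 0.11) and Junb (0.19, 0.07), with adjusted p of r = 0.459, 0.459 and 0.519. For those 6, in the order named, the raw p of r were 0.0422, 0.112, 0.201, 0.378, 0.413 and 0.519, the adjusted p of rho were 0.0753, 0.314, 0.338, 0.494, 0.765 and 0.804, and r without the 2 farthest mice was 0.26, 0.25, 0.30, 0.21, 0.13 and 0.16.

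Most genes shared some of this: over 15880 genes the median r was 0.14, against 0.45 over the members. Most of those genes were less abundant than the members. Because r was not compared with genes of like level, whether it was high for their abundance was not tested. By the labels both libraries of a mouse share the animal and its dissociation. No relation passed without the 5 mice that hold a doubted library, where r was 0.51 for Atf3 (adjusted p = 0.199), 0.51 for Fosb (0.199), 0.62 for Jun (0.115) and 0.82 for Egr2 (0.115). With RLE size factors Fosb (0.0652) and Jun (0.0913) did not pass. Mouse 65971, whose MG library had the fewest counts, was highest in MG of its stage for Fosb (8.29 log2 CPM, others 5.03 and 4.78) and Atf3 (11.43, others 9.25 and 9.29), and in its BMDM, at 8251139 counts, Fosb (7.29, others 5.92 and 4.52) and Atf3 (9.96, others 8.32 and 8.20) were also highest. It also had Y-linked RNA, where the other mice of its stage, 65696 and 67537, had Xist.

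**Figure D5:**
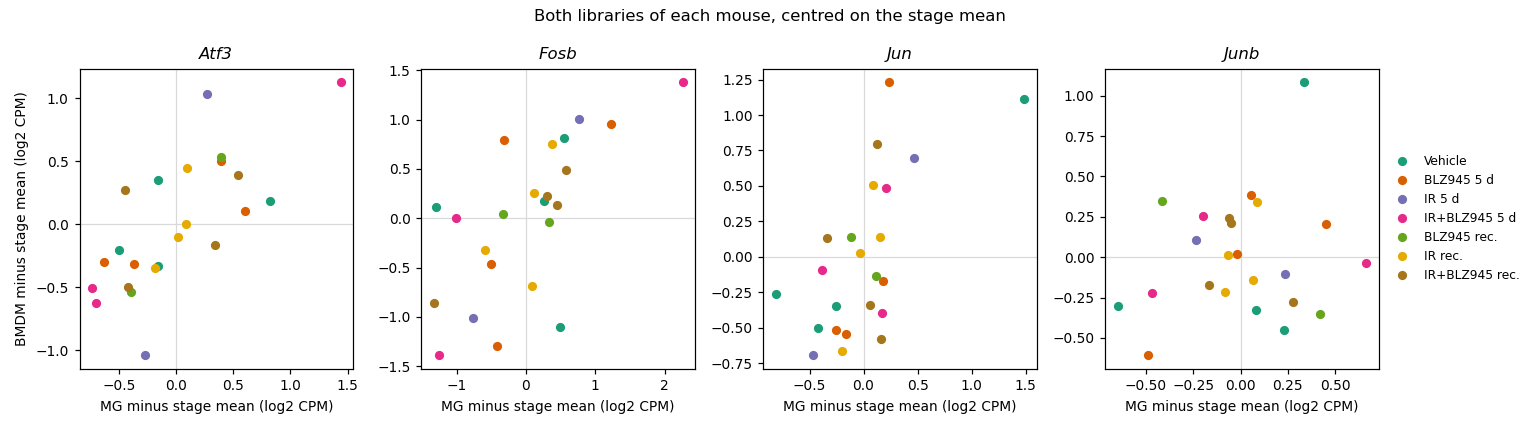
Level in BMDM against level in MG of the same mouse, each minus the mean of its population and stage (log2 CPM), for 3 genes whose relation passed and for Junb; points are the 23 mice, coloured by stage. The points run upward for Atf3 (r = 0.72), Fosb (0.67) and Jun (0.64) and scatter for Junb (0.19).

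Across the 46 libraries, centred the same way, the members formed loose sets. These correlations are descriptions, and libraries of 1 mouse are not independent. The closest pairs were Junb with Jund (r = 0.73), Junb with Dusp1 (0.70) and Fos with Jun (0.70). Fosb went with Atf3 (0.66) and Egr2 (0.62) but not with Dusp1 (-0.17). Before centring, Fosb and Dusp1 had r = -0.60. Of 13966 other genes, those most like Fos were Btg2 (r = 0.87), Abca9 (0.67), Zfp36 (0.65), Nfkb1 (0.65) and Adrbk2 (0.63). Those most like the mean of the 10 standardised members were Ptpro (0.78), Ppp1r15a (0.74), Prr14 (0.72), Btg2 (0.72) and Icam1 (0.72). Btg2, Zfp36 and Ppp1r15a were on the list of other immediate early genes.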

How the data were processed

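RNA of sorted MG and BMDM was sequenced from 23 mice after Smart-Seq amplification without molecular identifiers, per the labels' protocols. The deposited table holds raw counts of reads per gene, not normalized, in 46 columns that each match 1 library. Per the submitters' processing notes, the genome build was mm10 and the tools were STAR 2.5.0e, CASAVA 1.8, DESeq2 and HTSeq; the annotation and strand setting are not given in the sources used here. Amplified reads are not independent molecules, so depth bounds counting error only.

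Groups came from the labels' stage and cell type, and replicates are separate mice. The test was edgeR 4.0.16 (limma 3.58.1, R 4.3.3): glmQLFit with robust dispersion and glmQLFTest, TMM scaling and filterByExpr (minimum count 10, minimum total 15). There was 1 fit for MG (14534 genes), 1 for BMDM (14568) and 1 for all 46 libraries (15901). P-values were Benjamini-Hochberg adjusted over all genes tested in each of 31 comparisons, with a threshold of 0.05. The code was tested on simulated data. Per the labels, MG and BMDM libraries with the same mouse number come from the same animal, so the number pairs them; sex-linked genes went against this for 1 of 23 mice (65698), and the block was also fitted without it. Across 15880 genes, the stage-centred levels of the 2 libraries had a median r of 0.14. Alternatives were DESeq2 1.42.0, RLE size factors, no filter, leaving out libraries, terms for Malat1 minus Lars2 or for short against long mouse numbers, 1 fit over all libraries, the mouse as a replicate block and, for the correlations, a prior count of 5.

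All 10 members are named. Of the other immediate early genes, up to 4 that passed, by smallest p, were named in a comparison. Genes like the members are the 5 with the highest correlation, without predicted, clone-named, ribosomal, mitochondrial or receptor segment genes. The members, the lists and the tests were chosen with earlier results of these data known.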

Additional observations from a re-analysis of the deposited data

Results flagged for a closer look

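In groups of 4 mice, 8 values in 80 groups of libraries stood apart from the others of their group by Dixon's criterion, where chance gives about 1 in 20 groups, or 4 in 80. The 80 groups are not independent, because the 10 genes were measured in the same libraries and some were correlated. An excess of 8 over 4 therefore cannot be read from these numbers. Dusp1, Jun and Junb were high in the BMDM library of vehicle mouse 65967: Dusp1 at 12.72 log2 CPM (the others 10.14 to 10.35), Jun at 10.80 (9.18 to 9.42) and Junb at 12.11 (10.58 to 10.72). That library also had the lowest Lars2 of its group, 2.99 log2 CPM (the others 6.19 to 7.76). Its Malat1 was the highest, at 13.20 (the others 11.32 to 11.51). The part of this library property was not tested. Fosb was high in MG of mouse 123 at 5 days of BLZ945 (7.44, the others 5.71 to 5.89). It was low in MG of mouse 68362 in recurrence after IR-BLZ945 (5.93, the others 7.57 to 7.84) and in MG of vehicle mouse 65966 (6.23, the others 7.79 to 8.08). Jund was low in BMDM of the same mouse 68362 (7.55, the others 8.22 to 8.36) and high in BMDM of mouse 68344 in recurrence after IR (8.005, the others 7.53 to 7.56).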

How the results depend on the processing

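Of the 28 member calls, DESeq2 kept all 28, RLE size factors and no low-count filter each ended 1, the term for mouse number style ended 3 of 27, one fit over all libraries 6 of 27 and leaving out the 6 doubted libraries 9; 6 calls passed without any one library. With the term for Malat1 minus Lars2, 2 calls passed (Egr1, MG against BMDM at 5 days of IR-BLZ945, and Ier2 in BMDM at 5 days of BLZ945); 2 changed sign, Dusp1 in recurrence after IR against vehicle in BMDM (0.77) and Jun in recurrence after IR against 5 days in BMDM (0.31). Lars2 does not overlap between 5-day and recurrent libraries, so that term and the phase cannot be told apart. Groups of 2 mice and SEs of up to 1.07 limit what could be detected. For changes below not described as fewer samples or genes, the cause was not tested.

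Numbers of members called that moved by more than 1.5 times, or to or from 0, were these. Smaller moves are not listed. The share of all genes that passed also differed between settings, so a move is not read as particular to the members. Without the doubted libraries, MG against BMDM went from 0 to 2 in vehicle and from 1 to 0 at 5 days of IR-BLZ945. There 16.2% and 14.1% of all genes passed. Against vehicle, MG went from 1 to 3 at 5 days of IR-BLZ945 and from 1 to 2 in recurrence after BLZ945 and after IR-BLZ945, and BMDM from 1 to 0 at 5 days of BLZ945 and from 1 to 2 in recurrence after IR. In that order 7.56%, 7.23%, 13.9%, 2.38% and 6.73% of all genes passed. Recurrence against 5 days went in MG from 2 to 4 (BLZ945) and from 5 to 3 (IR), and in BMDM from 1 to 0 (BLZ945). In the BLZ945 pair 15.6% of all genes passed in MG and 5.72% in BMDM. With the Malat1 minus Lars2 term, 1 member passed in MG against BMDM in vehicle and at 5 days of IR, 1 in BMDM at 5 days of IR-BLZ945 against vehicle and 1 in MG in recurrence after IR against 5 days (from 5). The shares of all genes were 6.53%, 9.58%, 0.817% and 1.14%. It was 0 for MG against vehicle at 5 days of IR-BLZ945 and in all 3 recurrences, for BMDM against vehicle at 5 days of IR and in recurrence after IR, and for the other 5 recurrence comparisons with 5 days (BMDM after IR from 7). Shares of all genes ran from 0% to 8.11% over these comparisons. With the mouse as a replicate block, MG against BMDM gave 2 in vehicle, 3 at 5 days of IR, 2 at 5 days of IR-BLZ945 and 1 in recurrence after IR, and no other count changed; without mouse 65698 the block gave 2, 0, 2 and 1 in these stages and 1 at 5 days of BLZ945. With all mice in the block, 8.8% of all genes passed in vehicle and 2.25% in recurrence after IR. At 5 days of IR and of IR-BLZ945 it was 9.92% and 11.1%. DESeq2 gave 1, 2 and 1 for MG against BMDM at 5 days of IR, 5 days of IR-BLZ945 and recurrence after IR, 2 for MG in recurrence after BLZ945 against vehicle, 2, 1 and 4 for BMDM at 5 days of IR, recurrence after BLZ945 and recurrence after IR against vehicle, and 4 and 2 for BMDM recurrence against 5 days after BLZ945 and IR-BLZ945. In that order its shares of all genes were 15.3%, 18.8%, 3.13%, 6.5%, 7.5%, 0.686%, 6.25%, 10.8% and 7.93%. RLE gave 2 for MG against BMDM at 5 days of IR-BLZ945 (14% of all genes) and 0 for BMDM in recurrence after IR against vehicle (1.9%). It gave 2 relations between the libraries of a mouse (from 4). The number of relations fell to 0 without the 5 doubted mice. No filter gave 2 for MG in recurrence after BLZ945 (2.08% of all genes) and 0 for BMDM in recurrence after IR (0.988%), against vehicle. One fit gave 0 for MG against vehicle at 5 days of IR-BLZ945 and in recurrence after BLZ945 and IR, 2 for BMDM at 5 days of IR and in recurrence after IR, and, in recurrence against 5 days, 1 (BLZ945) and 2 (IR-BLZ945) in MG and 3 (BLZ945) in BMDM. In that order 6.91%, 1.27%, 1.82%, 4.03%, 3.95%, 5.13%, 20.5% and 8.62% of all genes passed. The number style term gave 0 for MG at 5 days of IR-BLZ945 and BMDM at 5 days of BLZ945, 2 for BMDM in recurrence after IR, each against vehicle, and 3 for BMDM in recurrence after BLZ945 against 5 days. The shares of all genes there were 8.06%, 3.93%, 1.8% and 2.16%. For the fits below that left out 1 library, no share of all genes is given.

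Leaving out 1 library at a time gave counts of 0 to 2 for MG against BMDM in vehicle and at 5 days of IR and IR-BLZ945, and 0 to 1 in recurrence after IR. Against vehicle it gave, in MG, 0 to 3 at 5 days of IR and of IR-BLZ945, 0 to 2 in recurrence after BLZ945 and IR-BLZ945 and 0 to 1 after IR, and in BMDM 0 to 4 at 5 days of BLZ945 and of IR, and 0 to 1 at 5 days of IR-BLZ945 and in recurrence after IR. Recurrence against 5 days gave 0 to 3 (BLZ945), 2 to 5 (IR) and 2 to 5 (IR-BLZ945) in MG, and 0 to 3, 3 to 7 and 0 to 3 in BMDM.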
